A study of Caenorhabditis elegans with 2 samples.

Results

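The regions described here are weak UNC-3 ChIP-seq peaks in one-directional promoters. That name means promoter sequence outside the space between closely spaced diverging starts, and other genes can still lie nearby. They were chosen from the pooled ce11 peak list by position and by absence from the reproducible list. That absence worked as a cut on pooled signal. The pooled list was deposited as holding background as well as peaks. A peak was a member when it lay on a nuclear chromosome and overlapped no peak of the optimal irreproducible discovery rate (IDR) list, which holds 754 peaks that the authors called reproducible. Its summit also had to lie more than 200 bp from tRNA, snoRNA and snRNA genes, and inside a promoter, counted from 500 bp before a protein-coding start to 100 bp past it. Summits between diverging protein-coding starts at most 1000 bp apart were left out. Of 15515 pooled peaks, 15499 were nuclear, 14484 of those overlapped no IDR peak, 14245 of those were away from the small RNA genes, and 3111 of those lay in promoters. After 487 peaks in divergent promoters were set aside, 2624 members remained, and they merged into 2418 separate regions.

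Both libraries came from 1 group of whole hermaphrodite late embryos of strain OP578 (unc-119(tm4063) III; wgIs578), collected 4 h after synchronization by egg bleaching. The integrated transgene wgIs578 of this 1 line makes UNC-3 tagged at its C terminus with GFP and FLAG, and an anti-GFP antibody was used for the precipitation. Both libraries share the transgene and the unc-119 mutation. There is no second condition and no library without the tag was analysed here. Sequencing depth is unknown, so no value below carries a depth. Since whole embryos were used, binding in few cells and weak binding in many cells cannot be told apart. With no untagged library analysed, whether a given member reflects binding at all was not tested.

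UNC-3 belongs to the COE transcription factors, named after Collier, Olf and EBF, which bind DNA as dimers at a palindrome. In cholinergic motor neurons it is known to turn on, through such sites, genes for acetylcholine synthesis and transport that give these cells their identity. In C. elegans, many messenger RNAs receive a spliced leader and many genes sit in operons, so an annotated start often marks a splice site rather than the place where transcription begins.

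The COE palindrome TCCCNNGGGA lay within 100 bp of the summit in 19 members. The 6 sequences printed next are examples with an intergenic summit, a palindrome within 50 bp of it and no exon in the window, from the strongest peak to the weakest. They show how far the palindrome (capitals) stood from the summit, which is the middle base. Each is 121 bases of the RefSeq WBcel235 genome, which is the same assembly as ce11, read 5′ to 3′ on the strand of the nearest start.
twk-32, chrV:13796276-13796396, plus strand: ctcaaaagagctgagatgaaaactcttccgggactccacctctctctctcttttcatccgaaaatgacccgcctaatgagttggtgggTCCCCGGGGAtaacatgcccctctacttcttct
glr-4, chrII:7794460-7794580, minus strand: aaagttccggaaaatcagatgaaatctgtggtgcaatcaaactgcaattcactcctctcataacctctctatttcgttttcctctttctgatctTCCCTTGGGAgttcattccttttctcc
tat-2, chrIV:4847052-4847172, minus strand: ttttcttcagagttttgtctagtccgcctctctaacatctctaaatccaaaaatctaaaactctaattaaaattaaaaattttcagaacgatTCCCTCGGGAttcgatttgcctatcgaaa
T16A1.2, chrII:2095055-2095175, plus strand: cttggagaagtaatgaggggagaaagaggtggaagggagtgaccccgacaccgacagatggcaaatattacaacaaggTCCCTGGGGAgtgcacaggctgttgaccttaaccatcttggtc
R10E8.8, chrV:18242048-18242168, minus strand: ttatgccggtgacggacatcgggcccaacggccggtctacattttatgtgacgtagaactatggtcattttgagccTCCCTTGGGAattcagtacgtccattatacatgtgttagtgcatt
nca-2, chrIII:4965254-4965374, plus strand: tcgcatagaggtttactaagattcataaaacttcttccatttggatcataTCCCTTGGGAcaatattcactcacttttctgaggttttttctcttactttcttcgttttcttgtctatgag

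Most members were weak by the authors' own statistic. The authors' signal value of a peak, whose scale is not stated, ranged from 20.1 to 60.1 over members, with a median of 25.9 and quartiles at 22.6 and 31.8. The deposited q-value was at most 0.05 for 130 members (4.95%, exact Clopper-Pearson 95% interval 4.16 to 5.86%), against 3.23% of all sub-threshold peaks away from small RNA genes. At the median deposited −log10 q of 0.11, q was 0.776, so the typical member did not stand out from background by that measure. Sub-threshold peaks in divergent promoters had a median signal of 29.8, and 15.2% of them had a q of at most 0.05.

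The rule has a threshold in the IDR list, which worked as a cut on pooled signal. The IDR list holds 754 peaks, and the strongest member had rank 755 by pooled signal. Values just beside the cut are therefore close. The strongest members lay at K09E9.4 (pooled signal 60.1, replicate 1 signal 23, replicate 2 signal 36), at mppb-1 (59.9, 15.7 and 44.2 in the same order), which encodes a mitochondrial processing peptidase subunit, and at F13C5.2 (59.9, 18.2 and 37.8), which encodes a bromodomain protein. The weakest IDR peaks in one-directional promoters lay at the alpha-tubulin gene tba-1 (60.3, 33.3 and 52.6), at ril-1 (60.5, 26.0 and 31.8) and at Y54E10A.10 (60.5, 43.8 and 23.3). The 183 IDR peaks in such promoters had a median signal of 80.8, and the cut placed them above members in advance.

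A peak overlapping the member by at least 1 bp was in the replicate 1 list for 1926 members (73.4%) and in the replicate 2 list for 1983 (75.6%). Both lists held one for 1351 members (51.5%, 49.6 to 53.4%), against 46.8% of all sub-threshold peaks away from small RNA genes, 44.6% of those in introns and 68.8% of those in divergent promoters. Replicate 1 alone held one for 575 members and replicate 2 alone for 632, while 66 (2.52%) had none in either list. The pooled list was called on both replicates together, so this overlap is a description and not an independent test. With overlap defined by summits within 100 bp of each other, the share was 26.7%.

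Where both replicates had a peak, the signals were balanced on the whole and loosely ordered. The median log2 ratio of replicate 2 to replicate 1 was 0.03 (SD 0.54 over 1351 members), and 96 members (7.11%) differed more than 2-fold, 59 of them higher in replicate 2. Across these members Spearman's rho of the replicate signals was 0.232 and Pearson's r of their log2 values 0.247, where all points share the same libraries and a restricted range of signal. Members overlapping the same replicate peak carried the same value, as those at vang-1 did (31.0 and 30.2). The SD, rho and r therefore count some replicate peaks more than once. The pooled signal was close to the sum of the replicate signals, with a median ratio of 0.95 and quartiles at 0.82 and 1.02.

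**Figure D1:**
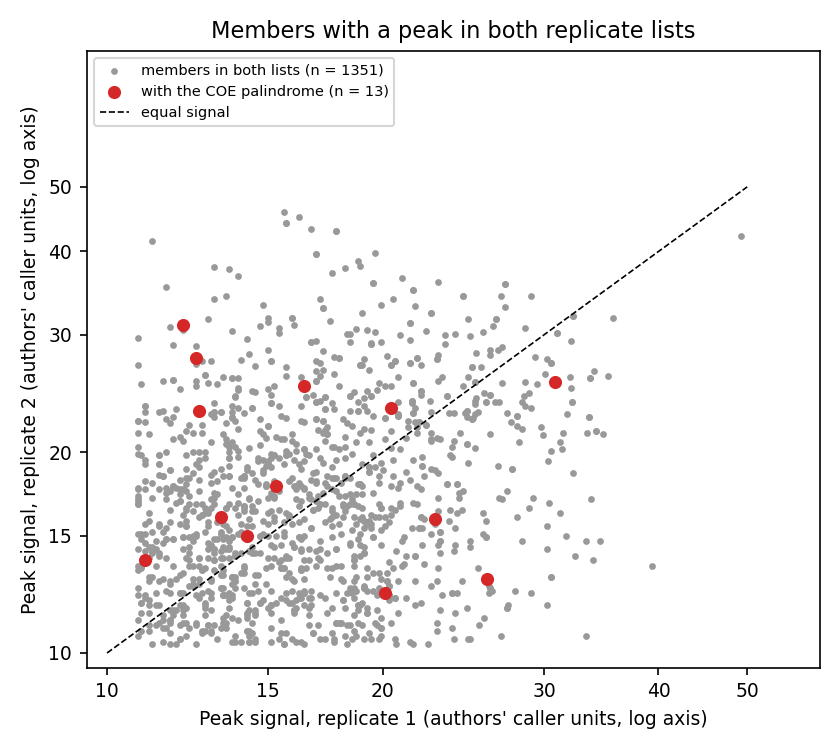
Members with a peak in both replicate lists (gray points, 1351), plotted by the authors' signal in replicate 1 and in replicate 2 on log axes, with the 13 that hold the COE palindrome in red and a dashed line of equal signal. The points form a broad cloud on both sides of the line, with a Spearman's rho of 0.232.

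Support in both replicates moved with strength. In the strongest of 4 equal groups by pooled signal (656 members each), 88.3% had a peak in both lists, and the later groups had 56.6%, 36.1% and 25%. Among the 130 members with a q of at most 0.05 the share was 97.7%. The groups were ranked by signal from the same libraries, so no test was made.

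The palindrome was present at the summit of 19 members (0.724%, 0.436 to 1.13%), against 0.1% of all windows of the same length centred in one-directional promoters. Without replicate 2, the same rule on the replicate 1 list gave 14 of 3235 (0.433%). In the window 1000 bp upstream of the same summits it was present in 5 members (0.191%), a difference of 0.534 percentage points (exact McNemar test, two-sided, p = 0.00661). In the window 1000 bp downstream it was present in 1 member (0.0381%, exact McNemar p = 4.01e-05). With promoters drawn from 300 bp upstream, the upstream difference was 0.496 points with an exact McNemar p = 0.0636. Peaks that overlap share sequence, so the tests count some sequence more than once. The 3 control palindromes had the T of each arm at another place (CTCCNNGGAG, CCTCNNGAGG and CCCTNNAGGG, both strands). They were in 3, 4 and 0 member windows (0.114%, 0.152% and 0%), against 0.124%, 0.119% and 0.0158% of all promoter windows. The last was too rare in all windows for its count to tell members apart, and its interval allowed a share of up to 0.14%.

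Of the 3 comparisons with other peak groups, 1 passed the threshold with the exact palindrome. IDR peaks in one-directional promoters held the palindrome in 6 of 183 (3.28%), and the difference, members minus IDR peaks, was -2.55 percentage points with a Newcombe 95% interval from -6.25 to -0.741 (Fisher's exact test, two-sided, Benjamini-Hochberg adjusted p = 0.0132). Where diverging starts were counted up to 2000 bp apart, that difference was -2.13 with an adjusted p of 0.0923 by Fisher's exact test. Sub-threshold intron peaks held it in 32 of 4945 (0.647%), with a difference of 0.077 points (-0.294 to 0.523, adjusted p = 0.768, Fisher's exact test). Sub-threshold divergent promoter peaks held it in 1 of 487 (0.205%), with a difference of 0.519 points (-0.465 to 0.957, adjusted p = 0.522, Fisher's exact test). With 1 mismatch allowed, that difference was 2.74 points with an adjusted p of 0.00976 by Fisher's exact test.

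**Figure D2:**
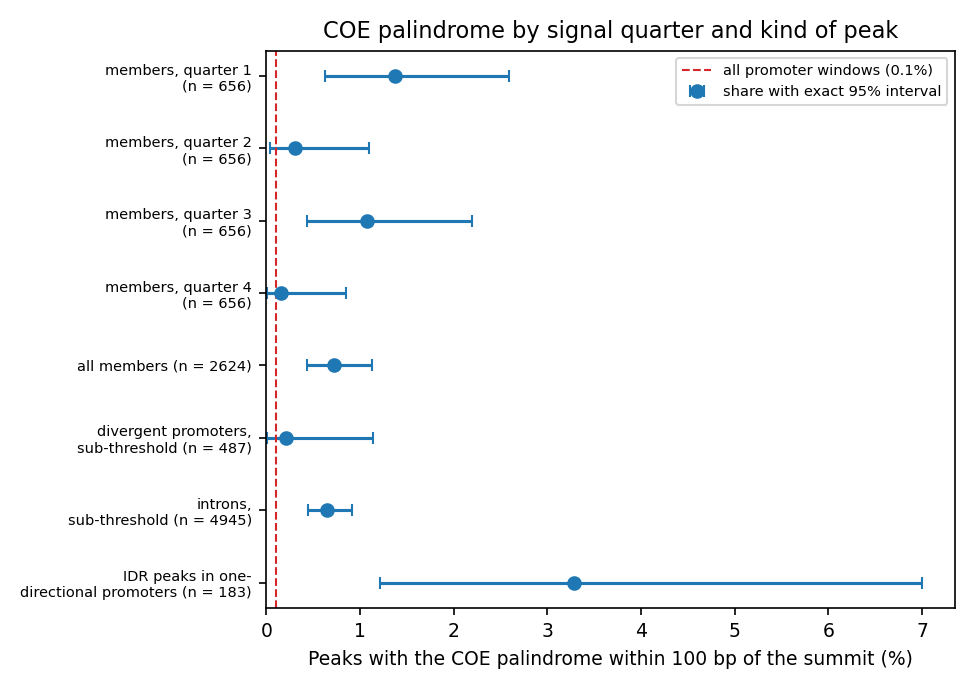
Share of peaks with the COE palindrome within 100 bp of the summit (points, with exact 95% intervals covering counting error only) for the 4 signal groups of members from strongest (top) to weakest, all members and the other peak groups. Members stood at 0.724% and IDR peaks in one-directional promoters at 3.28%, and the dashed line marks the 0.1% of all promoter windows.

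The 19 palindrome members had a lowest, median and highest signal of 21.8, 31.0 and 48.0, and 13 of them had a peak in both replicate lists. From the strongest to the weakest of the 4 signal groups, 9, 2, 7 and 1 members held the palindrome. In a search of 100 bp to either side, its centre lay within 50 bp of the summit in 12 of the 19. The median distance over all 19 was 36.5 bp. The strongest lay in an intron of C14H10.3 (pooled 48.0, replicates 30.8 and 25.5), and it was the only one with a q of at most 0.05. Of the others, bckd-1A, which encodes a subunit of branched-chain 2-oxoacid dehydrogenase, had 45.1 (20.4 and 23.3).

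Genes with roles in neurons and glia were among the palindrome members. The peak at -305 bp from the start of twk-32, a potassium channel gene of the TWK family, had a pooled signal of 43.4 and replicate signals of 12.5 and 27.7. The peak upstream of glr-4, a glutamate receptor subunit gene, had 37.4 (26.0 and 12.9), and that upstream of nca-2, a subunit gene of the NALCN sodium leak channel, had 30.3 (15.3 and 17.8). The peak in the 5′ UTR of hlh-17, a bHLH factor gene expressed in glia, had 41.2 (16.4 and 25.1). All of these were found in both replicate lists, and their q-values ran from 0.0895 at twk-32 to 0.57 at nca-2.

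Other palindrome members lay at genes of signalling and the cell surface. At lit-1, which encodes the Nemo-like kinase of Wnt signalling, the signal was 25.2 (13.3 and 16), and at ced-10, a Rac GTPase gene, it was 21.8 (14.2 and 15), with the ced-10 summit in the 3′ UTR of a neighbouring gene. At tat-2, a phospholipid-transporting ATPase gene, replicate 2 alone had a peak (pooled 32.9, replicate 2 signal 21.2). The same held at let-805, which encodes the attachment protein myotactin (23.6 and 20.3), and at mfsd-6 (23.4 and 13.7). The remaining palindrome members, at C34D4.4, tol-1, T16A1.2, R10E8.8, ari-1.4, M04F3.5, C08E8.6 and T04B8.1, had signals from 23.7 to 39.8.

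Members were spread over the whole window rather than piled at the start. The median summit lay at -191 bp (quartiles -335 and -48), against -187 bp for all bases of these promoters, and 83.0% were upstream of the nearest start against 80.4% of bases. Density was 186, 200, 222, 210 and 214 members per Mb in successive 100 bp steps from -500 to -1 bp, and 174 from 0 to 100 bp. Members with a q of at most 0.05 were most numerous in the steps from -300 to -101 bp, where 61 of the 130 lay. The step from -300 to -201 bp held 23.1% of them, against 17.6% of all members and 15.8% of bases. The step from -200 to -101 bp held 23.8%, against 16.8% of all members and 16% of bases. This difference was not tested.

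**Figure D3:**
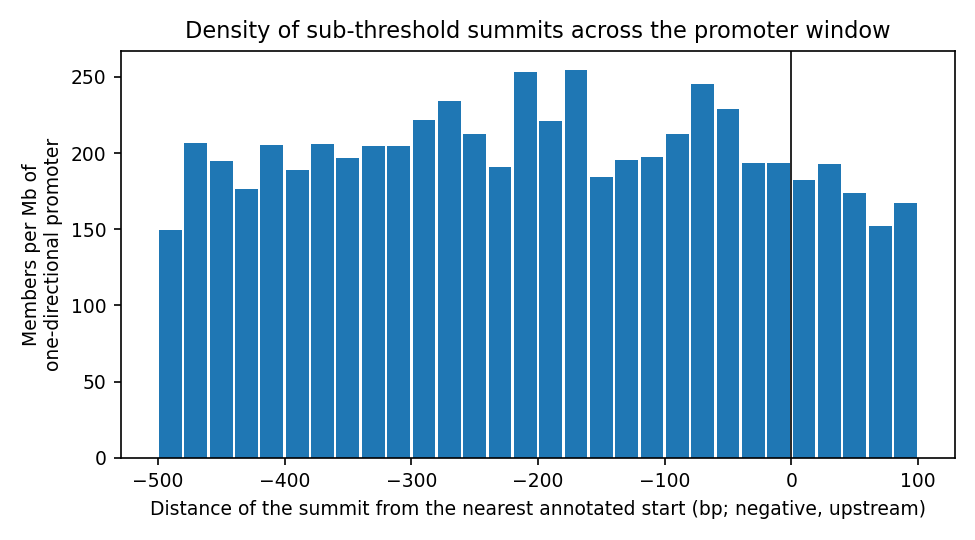
Members per Mb of one-directional promoter in 20 bp steps by distance of the summit from the nearest protein-coding start (bars, negative upstream, vertical line at the start). Density ran from 149.3 to 254.4 members per Mb, with no single peak at the start.

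By annotation, 54.5% of member summits were intergenic (49.9% of the promoter bases), 22.6% in introns (19.6%), 11.8% in coding sequence (19.4%), 7.43% in 5′ UTRs (6.73%) and 3.54% in 3′ UTRs (4.28%). The 3′ UTR summits belonged to another gene in 91 of 93 members. Coding sequence was under 14.9% of summits in the weakest of the 4 signal groups and under 8.08% in the strongest. The upstream neighbour of the nearest start was on the opposite strand for 28.1% of members against 20.1% of starts, and on the same strand for 43.4% against 40.9%. Starts inside their own gene served 23.7% of members against 33% of starts.

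Chromosomes differed in density. Chromosome I had 253.8 members per Mb of one-directional promoter, III had 242.3 and V had 142.7, with the others from 194.9 to 207.6. Chromosome X held 15.5% of members against 15.2% of bases. Among the 130 members with a q of at most 0.05, X held 40 (30.8%, 23 to 39.5%), against 14.8% of the rest. Those 130 also had more GC (43.4% ± 7.81 against 37% ± 7.17), more intergenic summits (78.5% against 53.2%) and more GC boxes (13.8% against 6.42%). This split at q was chosen after the values were seen and was not tested.

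Member summits were richer in G and C than the sequence upstream of them and than promoter windows at large. GC content within 100 bp was 37.3% ± 7.34 (SD over members) at the summit, 35.5% in the upstream window, 36.5% in the downstream window and 35.2% over all promoter windows. It fell across the 4 signal groups from 39.6% in the strongest to 37.6%, 36.4% and 35.6%. IDR peaks in one-directional promoters had 43.7% ± 7.73. GC content and signal moved together, and the part of GC content in the signal was not tested.

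**Figure D4:**
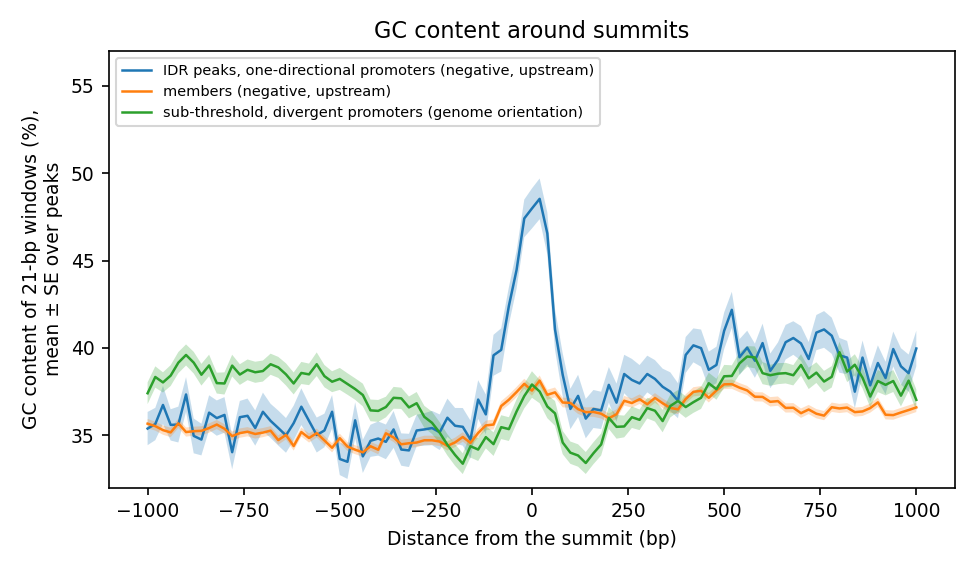
Mean GC content of 21 bp windows by distance from the summit (lines, with bands for the SE over peaks) for members, IDR peaks in one-directional promoters and sub-threshold peaks in divergent promoters. At the summit members reached 37.6% and IDR peaks 48.0%. Negative distances are upstream for members and IDR peaks, and divergent peaks are drawn in genome orientation.

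Short motifs were searched on both strands within 100 bp of the summit and are given as shares of members against all promoter windows. The GC box GGGCGG was in 6.78% against 4.28%, the GAGA repeat GAGAGAGA in 3.35% against 1.96%, the E-box CACGTG in 4.73% against 3.76% and the T tract TTTTTTTT in 25.5% against 22.9%. The COE core CCCNNGGG, which the palindrome contains, was in 2.13% against 0.626%. Less frequent at members than in all windows were the GATA site TGATAA (15.4% against 20%), the HOX/EXD site TGATNNAT (12.1% against 15.8%), the TATA box TATAAA (20.7% against 23.9%) and the trans-splice acceptor TTTCAG (33.4% against 36.2%). In the members' own windows 1000 bp upstream and downstream, these were in 17.2% and 17.5%, 16.2% and 14.8%, 20% and 18.9%, and 34.6% and 39.8%, in that order. The TATA box was thus not less frequent at summits than in these flanking windows. The homeodomain site TAATTA was in 10.8% against 10.2%. Sub-threshold peaks in divergent promoters and in introns shared several of these shifts. The GATA site was in 14.2% and 12.8% of them, the HOX/EXD site in 7.8% and 10.4%, and the TATA box in 22.8% and 20.9%. The GC box was in 8.01% and 5.26%, the GAGA repeat in 2.87% and 2.49%, and the COE core in 1.03% and 2.45%. The E-box (2.87% and 3.22%), T tract (21.1% and 34.1%) and acceptor (39.4% and 36.9%) did not shift as at members in both groups.

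Some of the strongest intergenic members with the GAGA repeat or the GC box are shown by 30 bases each, with the motif in capitals, because the ratio of the share at members to that in all windows was highest for these motifs after the COE sequences. The strand is that of the nearest start.
nhr-1, GAGA repeat, chrX:17513788-17513817, plus strand: gcggggaaatgGAGAGAGAgcacgagacgc
unc-112, GAGA repeat, chrV:14697018-14697047, minus strand: caactgttcacTCTCTCTCgctctctcatt
sti-1, GAGA repeat, chrV:773412-773441, plus strand: ttttctctgcgTCTCTCTCcttcgcacact
K09E9.4, GC box, chrX:15630964-15630993, minus strand: ccttctacttctCCGCCCtccaatgcttcg
vha-9, GC box, chrII:10303900-10303929, minus strand: gcaaccggagtcCCGCCCccttggttgatt
hmg-1.1, GC box, chrII:14250530-14250559, plus strand: tgtgtgtgtgtcCCGCCCctctcttcattc

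The 20 strongest members all had a peak in both replicate lists, 18 were intergenic and 12 lay on chromosome X. On X they included acl-1, an acyltransferase gene (pooled 59.5, replicates 32.2 and 23.8), nhr-40, a nuclear hormone receptor gene (59.1, 34.8 and 21.3), and vang-1, the Van Gogh planar polarity gene (57.6, 31.0 and 30.2). Several served basic metabolism and secretion. Those were mrpl-55, a mitochondrial ribosomal protein gene (59.0, 24.5 and 34.3), F36A2.7, a cytochrome c oxidase subunit gene (59.0, 21.6 and 35.0), sec-61.G, a subunit gene of the translocation channel (58.8, 16.7 and 43.2), and vha-9, a proton pump subunit gene (57.9, 32 and 25.9). None of the 20 held the palindrome, but 20 peaks are too few to set against the 0.724% over all members.

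Of 16701 genes with a one-directional promoter, 2222 (13.3%) had at least 1 member in it. In 1950 of them there was 1 member, in 251 there were 2, and 21 had 3 or more, up to 4 at gpb-1 (a G protein beta subunit), nurf-1 (chromatin remodelling), par-1 (a polarity kinase), sax-7 (an L1-type adhesion protein) and spat-2. An IDR peak was in the promoter of 170 genes, 6 of which also had a member. The rule removed peaks overlapping an IDR peak, and no member lay within 500 bp of one. The count of 6 was therefore limited in advance and cannot be read against the 13.3% over all genes. A gene was counted here when the base just upstream of 1 of its starts lay in a one-directional promoter. This definition replaced, after the values were seen, a wider one that took any base of the window. The wider one gave 2389 of 19957 genes (12%) and changed some lists far more than others, and both shares are given for the lists that moved most. Genes with several starts have more window in which a member can fall, and the 16701 genes had 24627 such starts. Neither the counts of members per gene nor the list shares below were adjusted for this.

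Proteasome, ribosomal protein and splicing genes had the highest shares by the narrower definition, and this order did not hold by the wider one, where panneuronal genes (28.6%), muscle genes (26.1%) and acetylcholine receptor and pharynx genes (25% each) stood above proteasome genes (24.2%). Of proteasome subunit genes, 8 of 14 had a member (57.1%), or 8 of 33 (24.2%) by the wider definition, led by rpn-11, the lid deubiquitinase (56.4, replicates 30.2 and 27.6). Of cytosolic ribosomal protein genes, 14 of 32 had one (43.8%), or 15 of 76 (19.7%) by the wider definition, led by rpl-23 (56.3, 34.2 and 21.5). Of splicing factor and hnRNP genes, 8 of 24 had one (33.3%; wider, 24.4%), led by hrpu-1 (43.8, 33.3 and 10.6). Translation factors stood at 26.1% (wider, 15.8%), histones at 27.8% (wider, 13.6%) and aminoacyl-tRNA synthetases at 27.3% (wider, 22.6%). By the wider definition all of these were nearer to the 12% over all genes.

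Neuronal lists kept close to the same share under both definitions. Of the panneuronal and synaptic genes, 8 of 28 had a member (28.6% by both, 13.2 to 48.7%). The strongest were at syd-2, the liprin scaffold (51.3, replicates 11.2 and 41.5), and unc-104, the synaptic vesicle kinesin (48.4, 31.7 and 15). Next came ida-1, a dense core vesicle protein (47.2, 17.1 and 26.0). Of acetylcholine receptor genes, 9 of 34 had one (26.5%, 12.9 to 44.4%, wider 25%), led by acr-14 (37.5, 13.4 and 25.9) and acr-21 (34.8, 19.3 and 15.8). Their q-values were 0.234 and 0.34. Both intervals include the 13.3% over all genes. The median signal of the strongest member per gene was 41.8 for panneuronal genes and 24.0 for receptor genes, against 26.2 over all genes. The peak at acr-2, a receptor subunit gene of cholinergic motor neurons, had 27.2 and was in replicate 2 alone (15.1).

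Genes for acetylcholine handling, motor neuron transcription factors, potassium channels and neuropeptide precursors had shares near that over all genes or with wide intervals. Of the 7 genes for acetylcholine synthesis, transport and breakdown, 1 had a member (14.3%, 0.361 to 57.9%), the acetylcholinesterase gene ace-1, with a pooled signal of 24.5 and a peak in replicate 2 alone (22). Of 19 motor neuron transcription factor genes, 4 had one (21.1%, 6.05 to 45.6%), and each was in 1 replicate list. These were unc-37, the Groucho corepressor (29.8), unc-42 (27.8), ceh-12 (21) and alr-1 (20.4). Potassium channel genes had one in 8 of 50 (16%) and neuropeptide precursor genes in 15 of 127 (11.8%), led by nlp-12 (38.8, 23 and 17.1).

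Muscle genes had a member in 6 of 22 (27.3%), led by the actin gene act-4 (52.1, 30.1 and 26.2), epidermis genes in 4 of 18 (22.2%) and pharynx genes in 2 of 8. Intestine genes had one in 1 of 18 (5.56%) and germline genes in 1 of 10 (10%; wider, 7.14%). Rab GTPase genes had one in 3 of 14 (21.4%; wider, 15%). Chaperonin and heat shock genes had one in 1 of 7 (14.3%), or 1 of 14 (7.14%) by the wider definition, namely hsp-3 (55.9, 30.5 and 27.2), and ceh homeobox genes in 5 of 58 (8.62%). Nuclear hormone receptor genes had one in 27 of 255 (10.6%). Low shares were also found in C-type lectin and F-box genes (25 of 424, 5.9%), chemoreceptor genes (57 of 1216, 4.69%) and cuticle collagens (5 of 138, 3.62%).

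**Figure D5:**
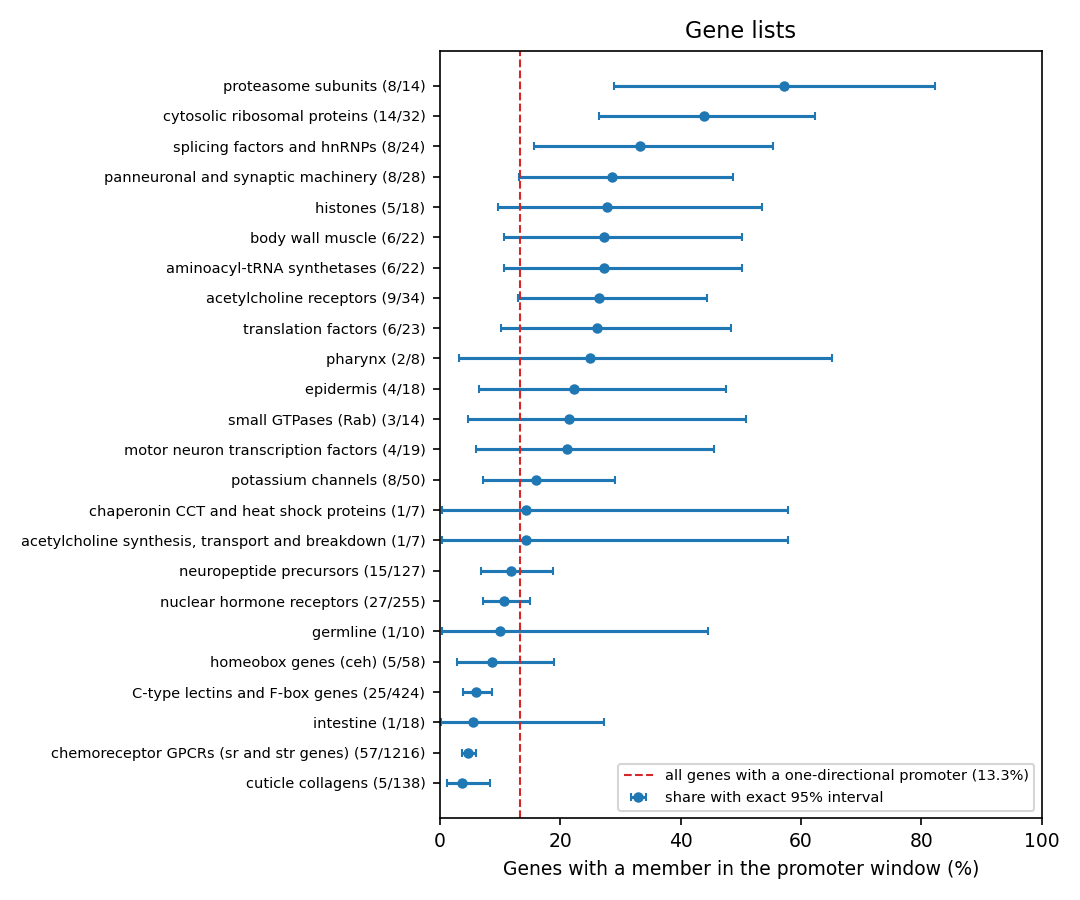
Share of genes with a one-directional promoter that had at least 1 member in it, by gene list (points, with exact 95% intervals covering counting error only), beside the 13.3% over all such genes. Proteasome genes stood at 57.1% and cuticle collagens at 3.62%, and the share of proteasome genes was 24.2% under the wider definition of a promoter gene. Shares were not adjusted for the number of starts per gene.

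The unc-3 gene, whose protein was precipitated, had no member and no pooled peak in its body or the 2000 bp upstream. The unc-119 gene, mutant in this strain, had 1 member in an intron at -139 bp from a start, with a pooled signal of 22.1 and a peak in replicate 2 alone (12.4). The pooled list held 5 peaks in its body and the 2000 bp upstream.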

How the data were processed

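ChIP-seq peak lists of 2 biological replicates of 1 group were used, in ce11. As recorded per the file headers, the replicate lists and the pooled list hold peaks and background as IDR input. The authors derived the IDR list from them. The deposited signal value of each peak has no stated scale, and the deposited −log10 q-value is the authors' own. Depth is unknown, and no source used here names the peak caller.

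The rule was applied with Ensembl release 115 in python 3.11.15 with numpy 2.4.6, pandas 2.3.3 and scipy 1.17.1. Sequence was read from the RefSeq WBcel235 genome. Sequence of chromosome I is not shown, which leaves out palindrome members at tol-1 and M04F3.5. Intervals are Clopper-Pearson at 95%, and differences between shares have Newcombe intervals. They cover counting error only. Motif counting was tested on simulated data. The replicates share 1 group, so comparisons use peaks as units. Named genes are unc-3, unc-119, the 20 strongest members, palindrome members, up to 5 per list and those beside the IDR threshold. Genes with 4 members, sti-1 and hmg-1.1 were named after their values were seen.

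The members and the 24 gene lists were chosen with earlier results of these data known, and 2 list genes were not matched. Chosen after the values were seen were the definition of a gene with a one-directional promoter (the first one tried is printed beside it), the split at a q of 0.05, the replicate balance, and the motifs and windows printed as sequence.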

Additional observations from a re-analysis of the deposited data

How the results depend on the processing

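The 7 results were recomputed under alternatives giving 91 values, of which 71 kept their direction and side of the threshold or stayed within the error. The number of members was 4119 with promoters from 1000 bp upstream and 1488 in the stronger 50% of the list. The share with a peak in both replicates was 69% in that stronger 50%, 49.5% with overlapping peaks merged, 42.6% with at least 50% overlap, 39.8% with the strongest 15515 replicate peaks and 26.7% with summits within 100 bp. The palindrome share was 4.38% with 1 mismatch, 2.13% for the core, and 0.433 to 0.69% when either replicate was left out, 0.433% being without replicate 2. The upstream difference lost its call with promoters from 300 bp (0.496 points, exact McNemar p = 0.0636), and among members with a q of at most 0.05, an alternative chosen after seeing the data that leaves 1 palindrome member (0.769 points, exact p = 1). The difference from IDR peaks was -2.13 with diverging starts at most 2000 bp apart. The difference from divergent promoters was 2.74 points with 1 mismatch, with an adjusted p of 0.00976 by Fisher's exact test. The difference from introns, never past the threshold, changed sign in 6 alternatives: -0.0127 with promoters from 1000 bp, -0.178 in the stronger 50%, -0.0078 within 50 bp, -0.147 with 1 mismatch, -0.313 for the core, and -0.00537 to 0.267 when either replicate was left out. The cause of these changes was not tested. The share in both replicates has no value with a replicate left out. No paired analysis was possible because there is 1 group. Gene list shares under a wider definition of a promoter gene stand beside the lists. Depth is unknown, so what it limits cannot be given.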
